A study of Mus musculus with 10 samples.

Results

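The insulin-like growth factor (IGF) axis genes and the imprinted noncoding RNA H19 were compared between 2 mouse sarcoma models by bulk RNA-seq. The 10 members were picked by gene symbol from a list (Igf1, Igf2, Igf1r, Igf2r, Igfbp2, Igfbp3, Igfbp4, Igfbp5, Igfbp7 and H19), out of 56750 features in the count table, and each symbol matched 1 row. The rule itself uses symbols, but the list was chosen with earlier results of these data known. The dFLEx group held 3 tumors, numbered 170019, 170024 and 170025, from mice of genotype dFLEx CDS +/-. These carry a CIC::DUX4 fusion construct at Rosa26 behind a CAG promoter, which becomes active only after both Cre and FLPE recombination; both enzymes were delivered as plasmids by electroporation of the hind limb muscle. The KP group held 2 tumors, numbered 3800 and 3802, whose genotype includes p53fl/fl, a p53 allele that recombination deletes. The dFLEx mice were electroporated as young adults, whereas how the KP tumors were induced and the ages of the KP mice are not given in the sources used here. The groups therefore differ in driver and in p53 allele, and these cannot be told apart. RNA of each tumor was split into duplicate libraries, so a tumor was 1 replicate and its libraries were summed; tumor 3802 entered with 1 library, and its second library was not analysed here.

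IGF signaling works through secreted ligands, cell surface receptors and secreted proteins that bind the ligands. Igf1 and Igf2 encode the ligands, which activate the receptor tyrosine kinase encoded by Igf1r, whereas Igf2r encodes a receptor that takes up IGF2 for degradation in lysosomes. The binding proteins hold the ligands in the tissue and can limit or prolong their action, and proteases release the ligands from them. Igf2 and H19 are neighbouring imprinted genes on chromosome 7, expressed from the paternal and the maternal copy respectively, and in muscle both are best known from development and regeneration.

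Library totals ran from 20503474 to 46302223 counts, so that 3 counts corresponded to 0.0648 to 0.146 CPM (counts per 1000000 counts). The fusion row had 105 CPM in tumor 170019, 202 in 170024 and 423 in 170025, against 0 in KP tumor 3800 and 0.244 in 3802. Differences between duplicate libraries were largest in tumor 170019, where the higher of the 2 libraries was 1.29 times the lower at the median of the members other than Igf2, and up to 1.97 times for Igfbp7. In the other tumors with duplicates the highest such ratio was 1.24. Nothing in the labels says that the tumors of a group shared a litter or a day, and the p-values measure the spread between these tumors. In bulk tissue, fewer cells of a type and less RNA per cell cannot be told apart.

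Binding protein promoters are shown because Igfbp2, Igfbp3 and Igfbp4 had the widest separation between the groups. They are the 250 bases before the RefSeq start site in build GRCm38.p6, read 5′ to 3′ on the strand of the gene, and capitals mark a GC box (GGGCGG) or a TATA box (TATAAA) on either strand. Of the 10 members, 9 had at least 1 promoter in the RefSeq table, 13 windows in all.
Igfbp2, upstream of the first of its starts at chr1:72824230-72824479, plus strand: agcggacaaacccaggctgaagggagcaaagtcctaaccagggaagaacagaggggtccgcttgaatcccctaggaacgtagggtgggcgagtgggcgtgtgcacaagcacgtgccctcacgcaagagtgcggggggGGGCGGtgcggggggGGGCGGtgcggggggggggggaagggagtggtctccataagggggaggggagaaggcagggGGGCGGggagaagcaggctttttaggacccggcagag
Igfbp3, upstream of its start at chr11:7213924-7214173, minus strand: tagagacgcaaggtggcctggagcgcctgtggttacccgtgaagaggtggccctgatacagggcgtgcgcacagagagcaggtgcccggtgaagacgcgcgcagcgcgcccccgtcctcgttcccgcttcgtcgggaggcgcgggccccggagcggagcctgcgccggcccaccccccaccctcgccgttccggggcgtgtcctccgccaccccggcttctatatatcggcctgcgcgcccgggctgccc
Igfbp4, upstream of its start at chr11:99040994-99041243, plus strand: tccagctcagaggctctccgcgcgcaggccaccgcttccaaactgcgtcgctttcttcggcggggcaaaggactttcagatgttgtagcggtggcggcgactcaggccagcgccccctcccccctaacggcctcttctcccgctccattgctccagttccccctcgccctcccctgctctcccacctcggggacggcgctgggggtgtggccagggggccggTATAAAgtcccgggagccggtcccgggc
Igfbp2 has a second RefSeq start, whose 300-base window (chr1:72825137-72825436) held none of the motifs searched and is not printed. The Igfbp2 stretch shown held the GC box at 3 places and the Igfbp4 stretch held 1 TATA box, whereas the Igfbp3 stretch held neither exact string. Variants of the TATA box were not searched, and the Igfbp3 stretch holds the letters tatatat near its start site, which are not marked. Over all 32851 promoter windows of 300 bases, 35.7% held the GC box and 13.6% held the TATA box. The CIC octamers TGAATGAA and TGAATGGA, searched on both strands, were in 1.30% and 1.21% of all windows and in 0 of the 13 windows of the members. That says only that these letters are not in these windows.

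Of the 10 members, 6 had each dFLEx tumor above both KP tumors: Igf1, Igf1r, Igfbp2, Igfbp3, Igfbp4 and Igfbp7. Each of these 6 had a fold change above 0 in all of its 15 alternative analyses. For the analyses on part of the tumors or on single libraries, that largely follows from the separation itself. None was lower in every dFLEx tumor, and the groups overlapped for Igf2, Igf2r, Igfbp5 and H19. Over all 24743 genes tested, 13.7% were higher in every dFLEx tumor and 11.7% were lower in every dFLEx tumor. In edgeR's quasi-likelihood test with Benjamini-Hochberg adjustment over all of these genes, 0 of 10 members passed an adjusted p of 0.05, where 0.182% of all genes passed. At an unadjusted p of 0.05 in edgeR, 5 members passed, all higher in dFLEx (Igf1r, Igfbp2, Igfbp3, Igfbp4 and Igfbp7), where 5.65% of all genes passed in that direction. DESeq2 on the same tumor sums called 3 members higher (Igfbp2, Igfbp3 and Igfbp4) at an adjusted p of 0.05, where 3.78% of all genes were called higher, and limma-voom, with tumors as random effects, called the same 3 genes, where 1.61% of all genes were called higher. The median log2 fold change was 1.48 over the 10 members and -0.18 over all genes tested. Because the list was chosen with earlier results of these data known, these counts and shares describe the members and do not test them as a set.

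**Figure D1:**
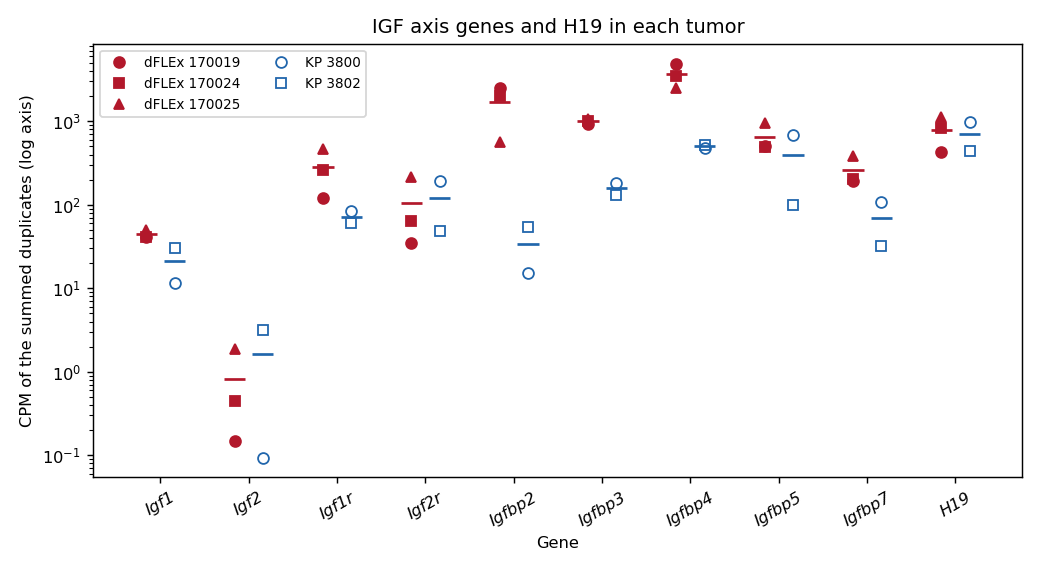
Level of each member in each tumor, in CPM of the summed duplicate libraries on a log axis. Filled red symbols are the 3 dFLEx tumors, open blue symbols are the 2 KP tumors, and short lines are group means. The groups are apart for Igf1, Igf1r, Igfbp2, Igfbp3, Igfbp4 and Igfbp7, and Igfbp2 is the most separated.

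Of the ligands, Igf1, the growth hormone-responsive ligand, had a low and even level in dFLEx. Igf1 was at 41.4, 41.5 and 49.6 CPM in dFLEx tumors 170019, 170024 and 170025, and at 11.6 and 30.3 CPM in KP tumors 3800 and 3802. The dFLEx tumors lay together and above both KP tumors, which differed from each other 2.60-fold. The log2 fold change of Igf1 was 1.08 ± 0.64 (SE), with an edgeR adjusted p of 0.696, and it lay between 0.71 and 1.94 with each tumor left out. The gene lies at chr10:87694127-87772904 (GRCm39, plus strand), and an antisense gene in the same place, Igf1os, shares 0 of its exonic bases.

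The Igf2 row measured only part of the gene. Igf2 (chr7:142204503-142220553, minus strand, GRCm39) has 5723 exonic bases in the counting annotation, and 3596 of them (62.8%) are also exons of Gm49394, a readthrough locus on the same strand. All 540 coding bases of the canonical transcript lie in the shared exons. The counting left out reads that fell on 2 genes, and Gm49394 itself had 0 counts over all libraries. A further 98 exonic bases are shared with the antisense gene Igf2os, which leaves 2029 bases that could be counted, most of them in exons upstream of the coding sequence that differ between promoters. The Igf2 row therefore gives no level of the Igf2 coding transcript, and a low value does not mean that the ligand was absent.

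**Figure D2:**
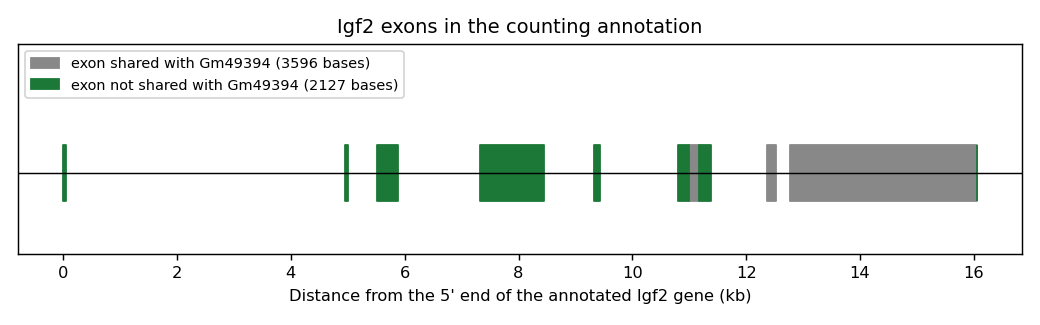
Exons of Igf2 in the counting annotation, along the distance in kilobases from the 5′ end of the annotated gene. Gray blocks are the 3596 exonic bases shared with Gm49394, in which reads were not counted, and green blocks are exonic bases not shared with it. All of the last long exon but 3 bases is gray.

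Within this limit, Igf2 had 6, 26 and 147 counts in dFLEx tumors 170019, 170024 and 170025, and 7 and 79 counts in KP tumors 3800 and 3802. That is 0.149, 0.451 and 1.85 CPM in dFLEx against 0.0940 and 3.21 CPM in KP. By CPM the highest and the lowest tumor were both KP. The lowest, KP tumor 3800, had all 7 of its counts in 1 library and 0 in the other. Its place below dFLEx tumor 170019, with 6 counts, is therefore not resolved. The log2 fold change of Igf2 was -0.99 ± 1.49 (SE, edgeR adjusted p = 0.921), it turned to 3.12 without KP tumor 3802, and limma-voom gave 3.84. The 5 genes of at least 10 CPM whose centred log2 CPM lay closest to that of Igf2 over the 5 tumors were Lyve1, Slc16a6, F13a1, Prkca and Fcna, out of 10030 genes compared. Lyve1, a hyaluronan receptor of lymphatic endothelium and of some tissue macrophages, was the nearest, with a root mean square difference of 0.596 (log2); it was at 8.71, 13.8 and 39.6 CPM in dFLEx and at 7.62 and 41.4 CPM in KP. Both genes were highest in KP tumor 3802, with dFLEx tumor 170025 next. Lyve1 was picked for likeness over the same tumors, so this is no separate result.

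Of the receptors, Igf1r was higher in each dFLEx tumor than in either KP tumor, whereas Igf2r overlapped. Igf1r (chr7:67602575-67883416, plus strand) was at 122, 262 and 460 CPM in dFLEx tumors 170019, 170024 and 170025, and at 84.6 and 59.8 CPM in KP tumors 3800 and 3802. The lowest dFLEx tumor was 1.44 times the highest KP tumor, and the dFLEx tumors spanned 3.77-fold. Igf1r had a log2 fold change of 1.96 ± 0.72 (SE, edgeR adjusted p = 0.373), and it lay between 1.40 and 2.41 with each tumor left out.

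Igf2r (chr17:12901293-12988551, minus strand) was at 35.1, 63.9 and 213 CPM in dFLEx tumors 170019, 170024 and 170025, and at 195 and 48.2 CPM in KP tumors 3800 and 3802. Each group held 1 tumor at 195 CPM or more and the others at 63.9 CPM or less. Igf2r had a log2 fold change of -0.22 ± 0.91 (SE, edgeR adjusted p = 0.975), and its sign depended on single tumors: it was 1.29 without KP tumor 3800 and -1.29 without dFLEx tumor 170025. Airn, the antisense RNA of the Igf2r locus, shares 0 exonic bases with Igf2r.

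Set against each other within a tumor, which does not depend on the scaling between tumors, the CPM of Igf1r was 3.48, 4.09 and 2.16 times that of Igf2r in dFLEx tumors 170019, 170024 and 170025. In KP tumors 3800 and 3802 it was 0.434 and 1.24 times. All 3 dFLEx ratios lay above both KP ratios. Per kilobase of countable exon, the Igf1r level was 1.93, 2.27 and 1.20 times the Igf2r level in dFLEx and 0.241 and 0.688 times in KP. On this measure Igf1r was the higher of the 2 receptors in each dFLEx tumor and the lower in each KP tumor. Which receptor is higher depends on the annotated exonic lengths, 16791 bases for Igf1r and 9308 for Igf2r. By CPM, Igf1r was the higher in KP tumor 3802 as well. The mean log2 ratio of dFLEx was 2.09 above that of KP; it was 1.34 above without KP tumor 3800 and 2.85 above without KP tumor 3802. With 3 against 2 tumors the smallest 2-sided p of an exact rank-sum test is 0.2, and none was run.

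**Figure D3:**
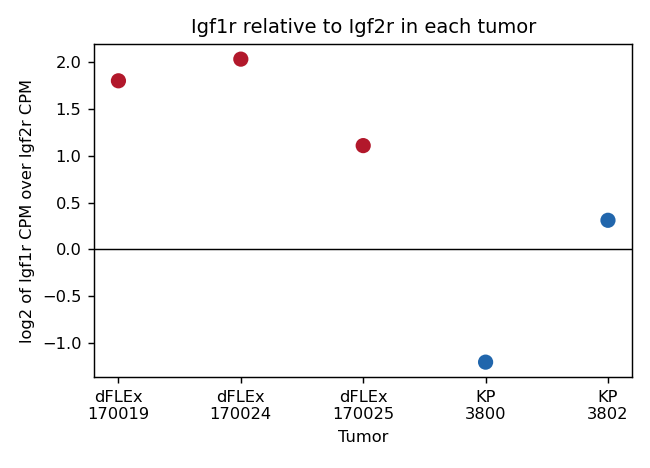
Ratio of Igf1r CPM to Igf2r CPM within each tumor, as log2, with 0 marking equal CPM. The dFLEx tumors (red) sit at 1.80, 2.03 and 1.11, and the KP tumors (blue) at -1.20 and 0.31.

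Of the binding proteins, Igfbp2, Igfbp3 and Igfbp4 were several times higher in each dFLEx tumor than in both KP tumors, Igfbp7 was higher by less, and Igfbp5 overlapped. Igfbp2 encodes a secreted binding protein that is abundant in fetal tissue and in many tumors. Igfbp2 (chr1:72863662-72891633, plus strand) was at 2526 CPM in dFLEx tumor 170019, 2016 in 170024 and 560 in 170025, against 15.1 and 53.7 CPM in KP tumors 3800 and 3802. The lowest dFLEx tumor was 10.4 times the highest KP tumor. The group means were 1701 ± 1020 CPM (SD, n = 3) and 34.4 ± 27.3 CPM (SD, n = 2). The log2 fold change of Igfbp2 was 5.63 ± 1.05 (SE), a fold of 49.5, with an edgeR adjusted p of 0.0942, and 182 of the 24743 genes had a smaller p. The adjusted p of Igfbp2 was 1.90e-08 in DESeq2 and 0.00193 in limma-voom. Over its 15 alternative analyses the log2 fold change of Igfbp2 lay between 5.14 and 6.84, with an adjusted p between 1.90e-08 and 0.277.

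Igfbp3 encodes the main carrier of IGFs in blood. Igfbp3 (chr11:7156086-7163923, minus strand) was at 938, 997 and 1063 CPM in dFLEx tumors 170019, 170024 and 170025, and at 184 and 130 CPM in KP tumors 3800 and 3802. It was the most even member in dFLEx, with tumors within 1.13-fold of each other, and the lowest dFLEx tumor was 5.10 times the highest KP tumor. Igfbp3 had a log2 fold change of 2.67 ± 0.56 (SE, edgeR adjusted p = 0.122), and its adjusted p was 0.00206 in DESeq2 and 0.000726 in limma-voom.

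Igfbp4, whose product is cleaved by the protease pappalysin to release IGF, had the highest CPM of all members in each dFLEx tumor. Igfbp4 (chr11:98932070-98945218, plus strand) was at 4904, 3508 and 2518 CPM in dFLEx tumors 170019, 170024 and 170025, and at 479 and 523 CPM in KP tumors 3800 and 3802. The KP tumors lay within 1.09-fold of each other, and the lowest dFLEx tumor was 4.82 times the higher of them. Igfbp4 had a log2 fold change of 2.86 ± 0.59 (SE, edgeR adjusted p = 0.117), and its adjusted p was 0.00155 in DESeq2 and 0.00203 in limma-voom.

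Igfbp7, a vascular and matrix-associated relative that binds IGF weakly, was at 195, 207 and 380 CPM in dFLEx tumors 170019, 170024 and 170025, and at 109 and 31.8 CPM in KP tumors 3800 and 3802. The lowest dFLEx tumor was 1.79 times the highest KP tumor, but the duplicate libraries of 170019 differed, at 255 and 129 CPM. The lower of these was still above both KP tumors. Igfbp7 had a log2 fold change of 1.89 ± 0.74 (SE, edgeR adjusted p = 0.412). Igfbp7 (chr5:77497087-77555888, minus strand) shares 85 exonic bases with the antisense gene Polr2b, in which reads were not counted.

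Igfbp5, a binding protein of muscle and bone matrix, lies next to Igfbp2 on chromosome 1 in the opposite orientation (chr1:72897091-72914043, minus strand). Igfbp5 was at 511, 488 and 943 CPM in dFLEx tumors 170019, 170024 and 170025, and at 688 and 99.3 CPM in KP tumors 3800 and 3802. KP tumor 3800 lay above 2 of the dFLEx tumors, so the neighbour of the most separated member did not separate the groups. Igfbp5 had a log2 fold change of 0.72 ± 0.83 (SE, edgeR adjusted p = 0.893); it was 2.87 without KP tumor 3800 and -0.072 without KP tumor 3802.

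**Figure D4:**
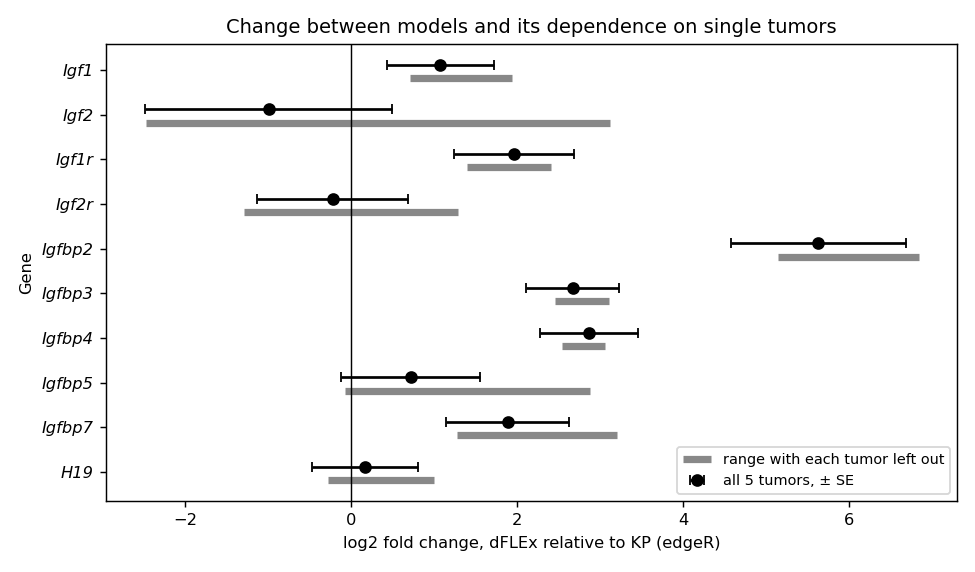
Log2 fold change of each member, dFLEx relative to KP, from edgeR on tumor sums (black points, bars are SE), with the range of the value when each of the 5 tumors was left out in turn (gray bars). The gray bars of Igf1, Igf1r, Igfbp2, Igfbp3, Igfbp4 and Igfbp7 stay above 0, and those of Igf2, Igf2r, Igfbp5 and H19 cross it.

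Summed per kilobase of countable exon, the 5 binding protein genes reached 3036, 2469 and 1708 CPM per kilobase in dFLEx tumors 170019, 170024 and 170025, and 387 and 234 CPM per kilobase in KP tumors 3800 and 3802. The makeup of the sum also varied between tumors. Igfbp2 took 45.1%, 44.2% and 17.8% of it in dFLEx, against 2.11% and 12.4% in KP. Igfbp4 took 36.6%, 32.2% and 33.4% in dFLEx, against 28.0% and 50.6% in KP, so its share overlapped although its level did not. Igfbp5 took 29.6% in KP tumor 3800 and 9.19% or less in each of the other 4 tumors. These shares are of the 5 members only and leave out Igfbp6, which is not a member. Igfbp6 was at 110, 91.3 and 33.9 CPM in dFLEx tumors 170019, 170024 and 170025. It was at 54.9 and 184 CPM in KP tumors 3800 and 3802, so its groups overlapped.

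**Figure D5:**
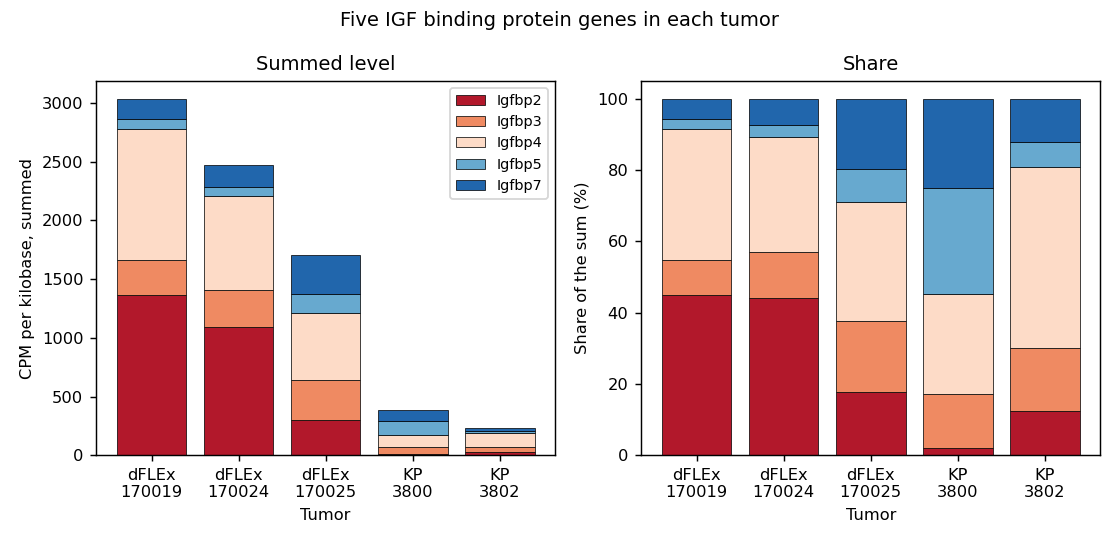
Igfbp2, Igfbp3, Igfbp4, Igfbp5 and Igfbp7 in each tumor, as CPM per kilobase of countable exon stacked to their sum (left) and as percent of that sum (right). The sums are 1708 or more in dFLEx and 387 or less in KP, and the Igfbp2 share is the smallest in KP tumor 3800.

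H19, the noncoding RNA beside Igf2, was abundant in all 5 tumors and did not separate the models. H19 (chr7:142129262-142131886, minus strand) was at 429, 822 and 1127 CPM in dFLEx tumors 170019, 170024 and 170025, and at 969 and 444 CPM in KP tumors 3800 and 3802. Both KP tumors lay within the range of the dFLEx tumors. The log2 fold change of H19 was 0.17 ± 0.64 (SE, edgeR adjusted p = 0.973), and its sign turned with library totals as scaling (-0.070) and without KP tumor 3802 (-0.27). H19 is the host of a microRNA, miR-675, whose 2 mature forms are given here because their hairpin lies in an exon of H19; capitals mark the seed, bases 2 to 8, and the sequences are from RefSeq.
mmu-miR-675-5p: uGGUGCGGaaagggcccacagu
mmu-miR-675-3p: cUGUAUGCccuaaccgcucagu
The seeds of the 2 forms differ. These libraries were made from rRNA-depleted RNA and give no mature microRNA level. The H19 row leaves out 225 exonic bases (8.57%) that other features share, 84 of them with Mir675, so reads there were counted for neither gene.

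Per kilobase of countable exon, which allows levels of different genes to be set side by side, H19 had the highest level of the members in both KP tumors, at 404 and 185 CPM per kilobase, with Igfbp5 next in tumor 3800 (115) and Igfbp4 next in tumor 3802 (118). In dFLEx, Igfbp2 was first in tumors 170019 and 170024 (1368 and 1092 CPM per kilobase) and Igfbp4 was second (1110 and 794). In tumor 170025 Igfbp4 was first (570), H19 second (469) and Igfbp2 behind Igfbp3 and Igfbp7 (303). Igf1, Igf1r and Igf2r were at 27.4 CPM per kilobase or less in each tumor. The order of the genes near the top thus changed between tumors of 1 model, and Igf2 was not placed in it because of its shared exons.

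Among the 3 dFLEx tumors, 7 members had their levels in the same order as the fusion row (170019, 170024, 170025 from low to high), namely Igf1, Igf2, H19, Igf1r, Igf2r, Igfbp3 and Igfbp7, 2 had the opposite order (Igfbp2 and Igfbp4), and Igfbp5 had neither. The total counts of these tumors run in the same order, and the part of depth in this order was not tested. The share of all genes in this order was not counted, so the count of members has no background beside it. For Igf1, Igfbp3 and Igfbp7, tumors 170019 and 170024 differed by less than the duplicate libraries of 170019. Those libraries were at 36.3 and 47.0 CPM for Igf1, at 974 and 899 CPM for Igfbp3 and at 255 and 129 CPM for Igfbp7. With 3 tumors no relation was tested.

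Markers of several other cell types also differed between the groups, to unlike extents. Over all genes tested, 13.7% were higher and 11.7% were lower in every dFLEx tumor. Of the fibroblast list, 4 of 7 genes were higher in every dFLEx tumor, and its summed level was 2720 to 9020 CPM in dFLEx and 1696 to 2460 CPM in KP. Of the pericyte list, 2 of 6 were higher (Rgs5 and Kcnj8), with sums of 608 to 1120 against 94.7 to 417 CPM. Of the endothelial list, 2 of 8 were higher (Pecam1 and Emcn), with sums of 442 to 599 against 177 to 188 CPM. The rest of both lists overlapped between the groups. Of the chondrocyte list, 4 of 6 were higher and 1 was lower (Sox9), with sums of 748 to 2510 against 156 to 174 CPM. Sox9 alone was at 155 and 132 CPM in KP tumors 3800 and 3802, which is most of the KP sums. The remaining gene, Matn1, was near the floor throughout. It was at 0.597, 0.260 and 0.126 CPM in dFLEx tumors 170019, 170024 and 170025, 0 counts in KP tumor 3800 and 0.284 CPM in KP tumor 3802. The adipocyte list had 4 of 6 higher, with sums of 264 to 402 against 8.93 to 189 CPM. The myofiber list had 6 of 8 higher, with sums of 10093 to 37701 against 1384 to 4724 CPM. In the other direction, 5 of 7 muscle progenitor genes were lower in every dFLEx tumor (sums of 22.3 to 73.3 against 409 to 531 CPM), as were 5 of 8 macrophage genes (1066 to 1262 against 2624 to 5250 CPM) and 4 of 6 T cell genes (5.86 to 10.2 against 32.6 to 71.6 CPM). Cells of several of these types express binding proteins, and their part in the levels of Igfbp2, Igfbp3, Igfbp4 and Igfbp7 was not tested.

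Of 50 other genes of the IGF pathway, 46 were tested and 0 passed an adjusted p of 0.05 in edgeR. At an unadjusted p of 0.05 in edgeR, 4 were higher and 1 was lower in dFLEx, where 5.65% of all genes were higher and 4.93% lower. DESeq2 called 2 higher (Igfbp1 and Stc2) at an adjusted p of 0.05, where 3.78% of all genes were called higher. Limma-voom called 1 higher (Stc2), where 1.61% of all genes were called higher. It also called 1 lower (Htra1), and the share of all genes called lower was not counted. Htra1 was at 167, 135 and 81.4 CPM in dFLEx tumors 170019, 170024 and 170025, and at 370 and 311 CPM in KP tumors 3800 and 3802. The median log2 fold change of the 46 tested genes was -0.24, near the -0.18 of all genes. Of these 46, 9 were higher in every dFLEx tumor (13.7% of all genes) and 3 were lower in every dFLEx tumor (11.7% of all genes). Of 16 genes of the PI3K-AKT-FOXO arm, 13 had a fold change below 0, with a median log2 fold change of -0.35. The median of all genes was itself below 0, at -0.18, and the share of all genes below 0 was not counted. In this arm 0 genes passed an unadjusted p of 0.05 in edgeR in either direction. Only 1 gene of the arm was higher in every dFLEx tumor, and 2 were lower in every dFLEx tumor.

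The stanniocalcins, secreted inhibitors of the pappalysins that cleave Igfbp4, went apart in value. Stc2 was at 100, 73.2 and 188 CPM in dFLEx tumors 170019, 170024 and 170025, and at 13.6 and 5.12 CPM in KP tumors 3800 and 3802. The lowest dFLEx tumor was 5.39 times the highest KP tumor, with a log2 fold change of 3.68 ± 0.81 (SE) and an edgeR adjusted p of 0.131. Stc1 was at 28.9, 16.7 and 17.9 CPM in dFLEx and at 25.1 and 102 CPM in KP. Its groups overlapped, and its log2 fold change was -1.59 ± 0.71 (SE, edgeR adjusted p = 0.501), or -0.23 without KP tumor 3802.

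The receptor adaptors Irs1 and Irs2, which link the activated receptor to PI3-kinase, had fold changes of opposite sign that rested on single tumors. Irs1 was at 1.32, 3.81 and 13.9 CPM in dFLEx tumors 170019, 170024 and 170025, and at 66.6 and 4.79 CPM in KP tumors 3800 and 3802. Irs2 was at 16.5, 51.0 and 245 CPM in dFLEx and at 38.4 and 3.86 CPM in KP. Both overlapped between the groups. The log2 fold change of Irs1 was -2.49 ± 1.21 (SE, edgeR adjusted p = 0.559) and turned to 0.58 without KP tumor 3800, and that of Irs2 was 2.30 ± 1.34 (SE, edgeR adjusted p = 0.682), or 0.68 without dFLEx tumor 170025.

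Pik3cb, a catalytic subunit of PI3-kinase, was at 4.01, 7.80 and 13.1 CPM in dFLEx tumors 170019, 170024 and 170025, and at 51.8 and 6.75 CPM in KP tumors 3800 and 3802, with a log2 fold change of -1.82 ± 0.91 (SE, edgeR adjusted p = 0.578). Only KP tumor 3800 stood above the others, and without it the value was 0.47. Nctc1, a noncoding RNA transcribed next to H19 and known from muscle, was at 12.02, 36.8 and 8.11 CPM in dFLEx and at 0.511 and 5.45 CPM in KP. Every dFLEx tumor was above both KP tumors, with a log2 fold change of 2.69 ± 1.17 (SE, edgeR adjusted p = 0.478), and it followed the myofiber list in being highest in tumor 170024 and lowest in KP tumor 3800.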

How the data were processed

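Raw counts were deposited by the authors per library. The authors trimmed reads with Trimmomatic 0.39, aligned them with STAR 2.7.10a to mm39 with the fusion construct added, and counted them with featureCounts (Subread 2.0.3) without strand; each mate was counted, and reads on several genes or places were not. Gene symbols were joined from GENCODE M39 (56017 of 56750 features). Duplicate libraries were summed per tumor. edgeR 4.0.16 (TMM scaling, filterByExpr, quasi-likelihood test, Benjamini-Hochberg over 24743 genes, threshold 0.05) compared 3 dFLEx with 2 KP tumors. Levels are TMM-scaled CPM; levels per kilobase use exonic bases that no other feature shares. In simulated data on 22628 genes, 0, 5, 15 and 50 of 50 genes were called at a log2 change of 1, 2, 3 and 6. Of the unchanged genes, 1 was called. The changed genes were drawn from the more abundant ones, and the simulated spread followed gene level only. Genes with a wider spread than others of their level are therefore not covered. The alternatives used DESeq2 1.42.0, limma 3.58.1 and other scalings, filters and libraries. The members and lists were chosen with earlier results of these data known. Named were the members, the pathway genes passing the threshold, the 3 with the largest change in each direction among those with a mean of at least 1 CPM, and the 5 genes closest to Igf2 (log2 CPM with 0.1 added); genes and promoters named beyond these were chosen after their values were seen. For counting error alone, 3 counts correspond to 0.0648 to 0.146 CPM. A further allele of the KP genotype is not reported here.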

Additional observations from a re-analysis of the deposited data

How the results depend on the processing

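With 15 alternatives each, the log2 fold changes of 16 genes gave 240 values, of which 201 kept their direction and side of the threshold, 26 kept their direction and passed it, and 13 turned sign. Members called numbered 1 without the filter on low counts (Igfbp2), 3 with DESeq2, 3 with limma-voom, and 5 with libraries taken as independent samples, with or without the replicate block; they numbered 0 to 1 with each tumor left out (Igfbp2 without KP tumor 3802). Pathway genes called numbered 1, 2, 2 and 10 under the same settings in that order, and 7 with the replicate block. The duplicate number pairs no tumors: same-numbered libraries' deviations correlated from -0.05 to 0.18 over 6 pairs of tumors. Taking libraries as independent counts each tumor's RNA more than once. H19 turned to -0.070 with library totals, and to -0.019 with libraries as independent samples and -0.018 with the replicate block. Igf2 turned to 3.84 with limma-voom. With each tumor left out, the log2 fold change ran from -0.27 to 1.01 for H19, -2.47 to 3.12 for Igf2, -1.29 to 1.29 for Igf2r, -0.072 to 2.87 for Igfbp5, -3.79 to 0.58 for Irs1 and -2.63 to 0.47 for Pik3cb, and the Igf1r to Igf2r difference in log2 ratio from 1.34 to 2.85. A tumor left alone in its group is assumed to vary like the other group. Over all genes 45 were called, against 34 with library totals, 50 with upper quartile, 880 without the filter, 80 at a mean of at least 1 CPM, 1408 with DESeq2, 543 with limma-voom, 3344 and 2476 with libraries, 67 with first libraries and 0 to 414 with a tumor left out. Library totals and upper quartile moved the median of all genes by -0.28 and -0.16. The cause of these changes was not tested. The ratios of Igf2 to H19 and to Igf1 were not run, since the Igf2 row leaves out the shared exons.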

Other observations

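Igfbp2 was also compared with all other genes by the likeness used for Igf2, a choice made after its values were seen. The 5 genes of at least 10 CPM closest to Igfbp2 over the 5 tumors were Selenov, Col9a3, Alpl, Mmp13 and Dmrta2. Selenov, the nearest, was at 37.9, 16.2 and 5.77 CPM in dFLEx tumors 170019, 170024 and 170025, and at 0.0537 and 0.244 CPM in KP tumors 3800 and 3802. Dmrta2, a transcription factor gene, was at 40.00, 10.6 and 7.38 CPM in dFLEx and at 0.161 and 0.772 CPM in KP. Col9a3, a chain of the cartilage collagen IX, was at 52.3, 73.9 and 11.2 CPM in dFLEx and at 0.215 and 2.03 CPM in KP. Alpl, the phosphatase of mineralizing bone and cartilage, was at 58.5, 62.3 and 31.5 CPM in dFLEx and at 0.511 and 0.894 CPM in KP, and Mmp13, a collagenase of the same tissues, was at 460, 559 and 125 CPM in dFLEx and at 9.42 and 19.7 CPM in KP. As for Igfbp2, tumor 170025 was the lowest of the dFLEx tumors for each of these genes. They were picked for likeness to Igfbp2 over the same tumors, so this is no separate result. The chondrocyte list was split over the dFLEx tumors, given here in the order 170019, 170024 and 170025. Col2a1 (282, 528 and 1636 CPM), Col9a1 (165, 144 and 641 CPM) and Sox9 (34.5, 61.3 and 68.4 CPM) were highest in tumor 170025. Comp (201, 220 and 82.4 CPM) and Matn1 (0.597, 0.260 and 0.126 CPM) were lowest there. Acan (65.0, 94.8 and 82.4 CPM) was highest in tumor 170024. The likeness is a description over 5 tumors, and the compared genes come from the same libraries.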
